A study of Mus musculus with 90 samples.

Results

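The kidney of Balb/c mice at 0 kBq was compared with the lung, liver and spleen of the same control groups, to describe the genes that kidney cortex and kidney medulla have in common. The members were the bead-array probes detected in both kidney zones: 11158 of the 25697 probes on the array, or 7913 of 16593 genes at 1 probe per gene. A probe counted as detected in a zone when its detection p was under 0.05 on all 3 arrays of that zone. The groups were kidney cortex, kidney medulla, lung, liver and spleen at an injected activity of 0 kBq of the alpha emitter astatine-211, with 3 arrays each, 6 for the kidney and 9 for the other tissues. All 15 carry the sampling time of 24 h, the strain Balb/c and the nuclide label at 0 kBq; what the control animals were injected with, their age and their sex are not in the labels used here. The labels do not say how cortex and medulla were separated, nor that the 3 arrays of a group came from separate animals, so every p-value measures only the spread between these arrays. The study asked how tissues respond to low absorbed doses of astatine-211; the control arrays give the tissue levels from which those responses start.

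The nephron filters blood in the glomerulus and then recovers water, salts and nutrients along a chain of tubule segments. The proximal tubule takes back phosphate, glucose, amino acids and filtered protein with apical transporters and endocytic receptors and secretes organic ions. The thick ascending limb reabsorbs sodium chloride and secretes uromodulin, the distal convoluted tubule tunes magnesium and sodium, and the collecting duct sets water and acid excretion. Glomeruli lie in the cortex and most thick limb and collecting duct mass lies in the medulla, while the last proximal segment runs down into the outer medulla. In whole tissue, fewer cells of a type and less RNA per cell cannot be told apart.

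Levels are log2 intensities after background correction and normalisation of the 15 arrays together. Between 11665 and 14327 probes were detected per array, the median raw intensity lay at 100 or above, and the number of arrays limits the precision. Arrays of 1 group correlated at 0.988 to 0.995 across probes, arrays of cortex and medulla at 0.957 to 0.965, and kidney arrays with those of other tissues at 0.656 to 0.753. A probe was tested when it was detected on all 3 arrays of at least 1 group, which left 15156. Among them 546 were detected in cortex only of the 2 zones, 838 in medulla only and 2614 in neither. At the edge of the rule, Acat3 entered with a highest detection p of 0.0489 on the 6 kidney arrays, at mean levels of 6.03 in cortex and 5.17 in medulla, and Txndc11 stayed out at 0.0501, with 5.20 and 5.12. A probe detected in the kidney alone, or in the other tissues alone, could differ between them in 1 direction only. The counts below therefore describe the tissues and are no support for a direction.

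Most members differed between the kidney and the mean of the other tissues. By limma with Benjamini-Hochberg adjustment, 4708 of the 11158 were higher in the kidney (42.2%), 3952 were lower (35.4%) and 2498 did not pass. Over all 15156 probes tested, 33.2% were higher and 42.6% lower, and the median difference was -0.11. Of the called members 54.4% were higher, against 65% when arrays were scaled to a common median, which moved the median difference of all tested probes to 0. Because a mean over 3 tissues can be set by 1 of them, each zone was also tested against each tissue. In all 6 contrasts 1418 members were higher in the kidney (12.7%, against 9.51% of all tested) and 466 were lower (4.18%, against 4.51%). With a difference of at least 4-fold in every contrast, 278 probes of 218 genes were higher (2.49%, against 1.83%) and 14 were lower (0.125%, against 0.211%). The 466 became 243 under median scaling and 557 under cyclic loess, and the 278 became 160 without background correction and 158 on the authors' processed values.  By the share of members called, kidney differed least from liver, with 71%, then from lung with 76.7% and from spleen with 80.3%. By correlation across probes the order of liver and lung depended on the zone. Cortex arrays correlated at 0.747 to 0.753 with liver and 0.725 to 0.736 with lung. Medulla arrays correlated at 0.733 to 0.735 with liver and 0.74 to 0.748 with lung.

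The 2 zones were closer to each other than either was to another tissue. Cortex and medulla differed at 4292 members (38.5%, against 32.4% of all tested), 2377 higher in cortex and 1915 in medulla, with a median absolute difference of 0.27. The same median was 0.52 between kidney and liver, 0.66 for lung and 0.80 for spleen. Among the 278 probes 182 were called between the zones, 69 of them higher in medulla and 20 by 4-fold or more.

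**Figure D1:**
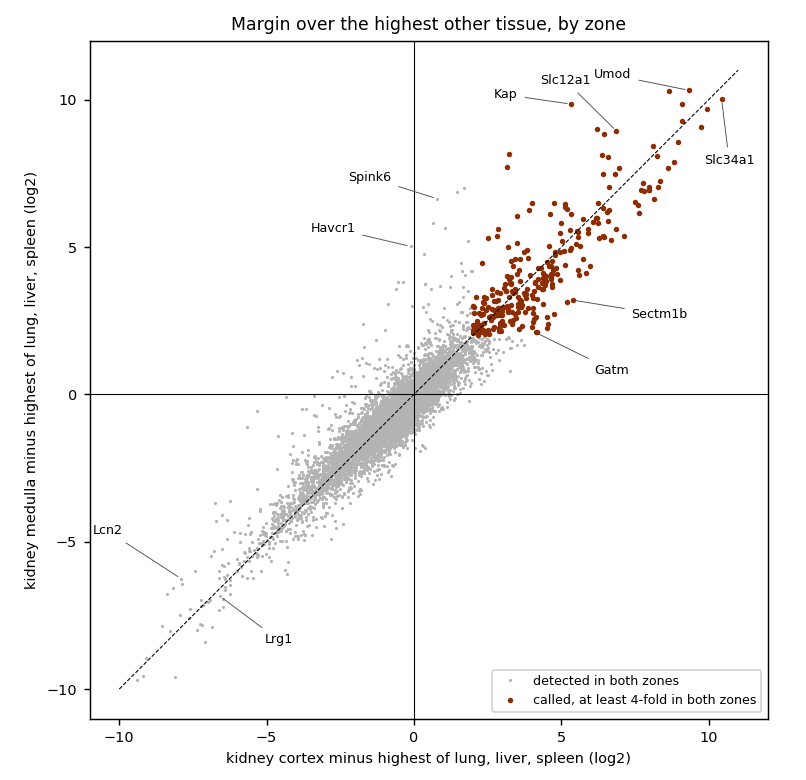
Difference of each member probe from the highest of lung, liver and spleen, in kidney cortex (horizontal axis, log2) and in kidney medulla (vertical axis, log2), from means of 3 arrays. Grey points are the 11158 members and brown points the 278 that were at least 4-fold higher in both zones than in each other tissue. The dashed line marks equal differences; Kap, Spink6 and Havcr1 lie above it, with higher levels in medulla, and Gatm and Sectm1b below it.

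The genes with the largest distance between the kidney and the other tissues included Slc34a1, Spink1, Umod, Miox and Fxyd2. A margin is the lower of the 2 zone means minus the highest of the other 3 tissue means. Where that tissue did not detect the probe on any array, its detection limit, between 4.76 and 5.22 per array, stands in and the fold is written as "at least". With these limits in place 255 of the 278 margins stayed at 4-fold or more. Every fold is that of the gene's brightest probe. Other probes of the same gene could give much smaller differences, and only some of these are given below. Over the probes of a gene, the difference from the mean of the other tissues ran from 0.4 to 2.28 for Pax8 and 0.73 to 4.42 for Slc22a19. It ran from 1.19 to 4.92 for Tfap2b, 2.5 to 4.57 for Vdr and -2.18 to -0.4 for Adgre1. All probes of these genes were called in the same direction.

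Slc34a1, the sodium-phosphate cotransporter of the proximal brush border, had the largest margin. Its levels were 14.97, 15.01 and 14.86 on the cortex arrays and 14.43, 14.46 and 14.67 on the medulla arrays. The 9 arrays of the other tissues lay between 4.28 and 4.64, all undetected. The kidney arrays therefore stood at least 633-fold above any other tissue, with a difference from the mean of the others of 10.28 ± 0.07 (SE, adjusted p = 3.49e-28).

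Umod encodes uromodulin, the main protein of normal urine. It read 13.72, 13.91 and 14.02 in cortex and 14.77, 14.90 and 14.97 in medulla, and 4.30 to 4.68 elsewhere, undetected. No kidney array came near another tissue, the margin was at least 408-fold, and medulla exceeded cortex by 1.00 (adjusted p = 4.05e-07). Spink1, a secreted trypsin inhibitor, read 14.62, 14.57 and 14.59 in cortex and 14.46, 14.26 and 14.25 in medulla, at least 552-fold over the rest.

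Miox, the renal enzyme that opens myo-inositol, was at 14.53 ± 0.04 in cortex and 13.85 ± 0.02 in medulla (SD, n = 3), at least 397-fold over the rest. Fxyd2, the gamma subunit that modulates the sodium pump, was at 13.81 ± 0.19 and 13.97 ± 0.14, at least 386-fold over the rest, with no call between the zones (adjusted p = 0.293). Egf, epidermal growth factor made by thick limb and distal cells, was at 13.02 ± 0.21 and 13.35 ± 0.09, at least 276-fold over the rest. Cltrn, collectrin, which brings amino acid transporters to the brush border, was at least 253-fold higher. These 4 genes were high on all 6 kidney arrays and lay near the detection limit on the other 9.

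The remaining genes of the 20 with the largest margins held the cystine transporter subunit Slc7a9 (at least 74.1-fold), the organic anion transporter Slc22a6 (at least 77.7-fold), the cubilin partner Amn (at least 95.6-fold) and the furosemide-sensitive cotransporter Slc12a1 (at least 75.5-fold). Dnase1, a secreted nuclease, was at least 98.3-fold higher, Tmem174, a membrane protein, at least 90.5-fold, and Pvalb, a calcium buffer of the distal convoluted tubule, at least 62.7-fold. Guca2b, the hormone uroguanylin, was at least 58.9-fold higher, Hsd3b4, a steroid dehydrogenase, at least 378-fold, and the epoxygenase Cyp2j11 at least 66.2-fold. The tissue kallikreins Klk1b27, Klk1b5 and Klk1 were 239-fold, 132-fold and 92.4-fold over spleen, the highest of the other tissues. Kallikrein genes, Hsd3b4 and Cyp2j11 have close copies in the mouse genome, so their probes may read more than 1 gene. A second probe of Klk1b27 differed by -0.22 from the mean of the other tissues and was not called (adjusted p = 0.148), against 8.95 for the brightest, and a second probe of Klk1b5 by 1.56 against 8.48; neither was detected in both zones. The 3 probes of Slc7a9 gave differences of 7.45, 6.47 and 2.13. Those of Slc12a1 gave 8.01, 7.67 and 7.62, and 0.95 for a probe not detected in both zones.

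The promoters of 4 of these genes are shown because they share a stretch close to the same palindrome. The motif searched was GTTAAT, any base N, and ATTAAC, which is its own reverse complement, so that 1 search covered both strands; up to 2 mismatches were allowed at its fixed letters. The windows run from 250 bases before to 50 bases after the RefSeq transcription start, on build GRCm38.p6, and the match is in capitals. They lie at chrX:164089937-164090236 on the plus strand for Cltrn, chr7:119479213-119479512 on the minus strand for Umod, chr7:35448842-35449141 on the plus strand for Slc7a9 and chr2:125152350-125152649 on the plus strand for Slc12a1.
Cltrn: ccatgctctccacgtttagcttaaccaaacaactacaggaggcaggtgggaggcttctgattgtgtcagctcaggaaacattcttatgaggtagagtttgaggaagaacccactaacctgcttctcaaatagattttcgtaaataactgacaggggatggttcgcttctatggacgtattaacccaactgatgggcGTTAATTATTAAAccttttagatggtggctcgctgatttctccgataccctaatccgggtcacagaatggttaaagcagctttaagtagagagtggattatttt
Umod: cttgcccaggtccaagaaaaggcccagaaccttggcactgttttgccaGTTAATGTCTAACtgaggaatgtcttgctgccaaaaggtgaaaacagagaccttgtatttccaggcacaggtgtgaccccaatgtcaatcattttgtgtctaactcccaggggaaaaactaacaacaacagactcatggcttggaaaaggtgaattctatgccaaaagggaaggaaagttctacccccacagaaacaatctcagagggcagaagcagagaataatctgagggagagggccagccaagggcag
Slc7a9: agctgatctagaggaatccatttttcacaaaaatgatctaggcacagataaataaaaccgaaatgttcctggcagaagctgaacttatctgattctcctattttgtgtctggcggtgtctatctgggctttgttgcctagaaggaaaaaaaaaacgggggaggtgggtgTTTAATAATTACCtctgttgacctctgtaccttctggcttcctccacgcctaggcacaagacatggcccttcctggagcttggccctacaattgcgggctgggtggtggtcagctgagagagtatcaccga
Slc12a1: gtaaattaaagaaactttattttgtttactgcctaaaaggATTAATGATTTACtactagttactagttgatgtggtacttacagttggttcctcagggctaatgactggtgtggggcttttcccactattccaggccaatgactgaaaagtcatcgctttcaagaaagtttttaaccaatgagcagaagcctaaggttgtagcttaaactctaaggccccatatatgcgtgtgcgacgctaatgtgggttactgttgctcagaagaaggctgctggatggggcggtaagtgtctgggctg

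The match in Cltrn differed from the motif at 1 letter and those in Umod, Slc7a9 and Slc12a1 at 2. Counted from the start site, it began at -54 in Cltrn, -81 in Slc7a9, -202 in Umod and -210 in Slc12a1. Such a match was present in the windows of 6 of the 17 top genes with a window (Hsd3b4 and Guca2b are the other two), and in 20 of those with a window among the 218 genes at 4-fold or more (11.4%). It was present in 1.58% of all 27025 genes with a window and in 1.43% of the 6508 genes with a window detected in both zones. The motif was chosen after the levels had been seen, a match is no evidence of binding, and the windows of the other genes say only that these letters are not in them.

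Proximal tubule transporters were higher in both kidney zones as whole lists. Among organic ion transporters 14 of 15 tested genes were higher in the kidney and 12 higher in both zones than in each other tissue, where over all 10414 genes tested 33.9% were higher and 10.1% higher than each. The list held 24 names, 19 of them on the array, and its median difference was 4.42, against -0.11 over all genes tested. At 4-fold or more over each tissue were 7 of the 15, against 2.02% of all genes tested. Slc22a6, which takes up organic anions from blood, read 12.40, 12.43 and 12.46 in cortex, 11.55, 11.56 and 11.37 in medulla, and 4.32 to 4.61 elsewhere. All 3 cortex arrays lay above all 3 medulla arrays, and both zones lay far above the rest. Slc22a12, the urate exchanger, was at 10.20 ± 0.09 and 10.17 ± 0.19, at least 31.1-fold over the rest, and Slc47a1, which extrudes organic cations into urine and bile, was 2.24-fold over liver at 14.18 and 13.63 against 12.47.

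The other proximal transport lists were alike. Of 14 tested amino acid and peptide transporters 12 were higher and 10 higher than each. Slc6a19, the main carrier of neutral amino acids, was at 11.61 ± 0.03 in cortex and 10.34 ± 0.02 in medulla, at least 34.8-fold over the rest, and Slc6a20b, an imino acid carrier, at least 34.1-fold. All 16 tested genes on the list of glucose, phosphate, bicarbonate and sulphate carriers were higher, of 20 on the array, and 11 higher than each. The list also held other transport genes. Among them Slc5a8, a sodium-coupled monocarboxylate carrier, was at least 24.6-fold over the rest and Slc13a3, a dicarboxylate carrier, 12.7-fold over liver. Pdzk1, the scaffold that anchors these carriers, was at 14.28 and 13.98 against 11.09 in liver and undetected in lung and spleen.

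Of 18 tested genes of endocytosis and the brush border 16 were higher, 1 lower and 12 higher than each. Mep1a, the alpha subunit of meprin, was at least 48.8-fold over the rest, the microvillus protein Vil1 at least 29.1-fold and Ush1c, a microvillus tip adapter, at least 31.7-fold. Lrp2, the endocytic receptor megalin, was close to the detection limit on its probe, at 5.69 ± 0.31 in cortex and 5.73 ± 0.19 in medulla, at least 1.39-fold over the rest (adjusted p = 9.12e-08). Gatm, the first enzyme of creatine synthesis, read 9.44, 8.52 and 8.78 in cortex and 6.90, 6.74 and 6.99 in medulla, and 4.48 to 5.28 elsewhere. The cortex arrays stood apart from the medulla arrays and these from the rest.

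**Figure D2:**
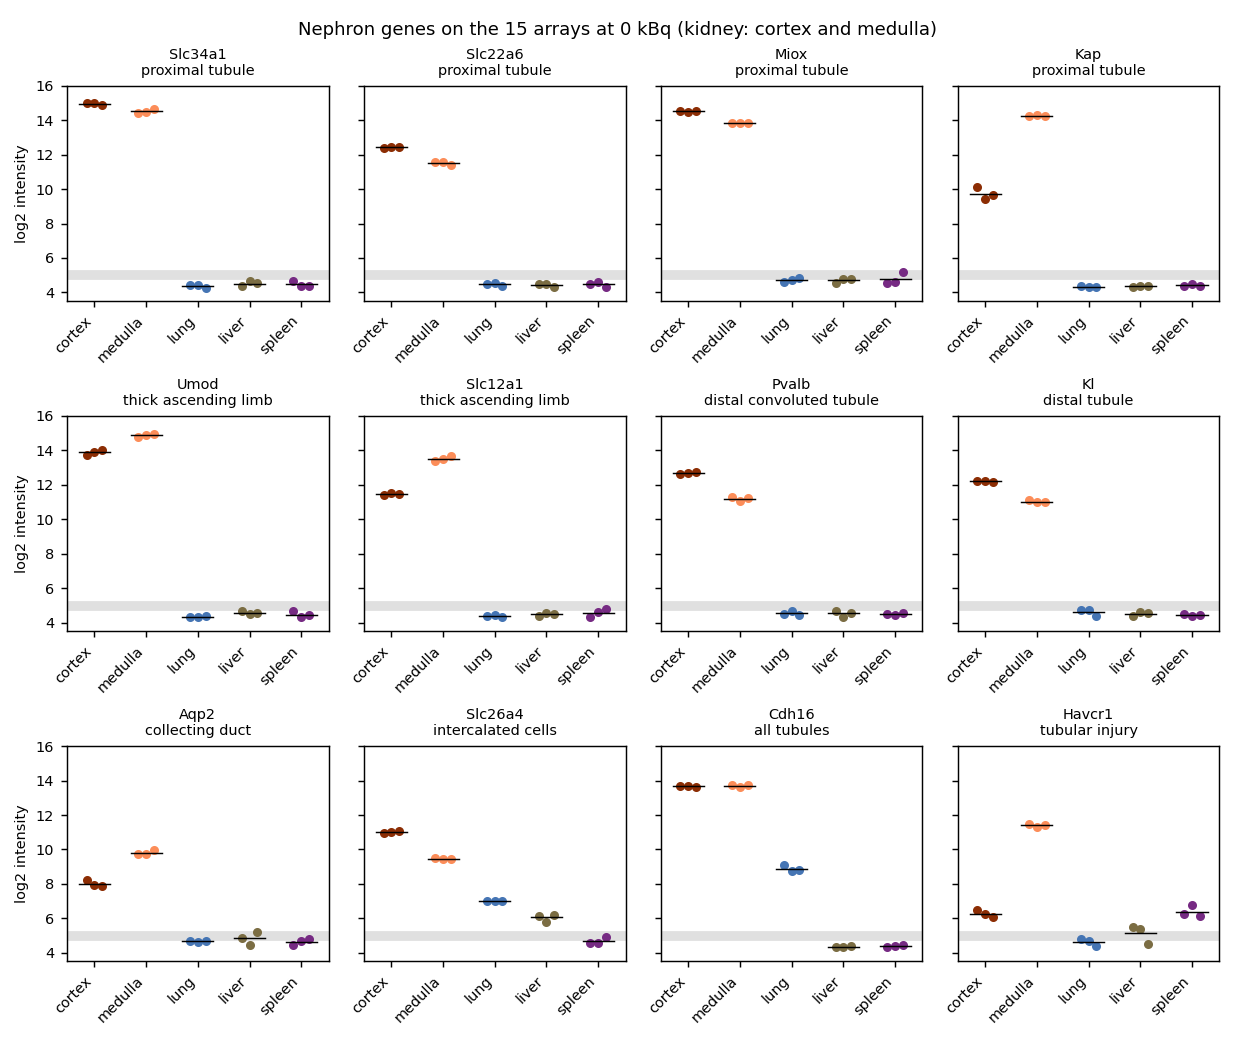
Log2 intensity of 12 kidney genes on each of the 15 arrays at 0 kBq, by tissue; points are arrays, bars are the means of 3 arrays, and the grey band is the range of the arrays' detection limits, 4.76 to 5.22. Slc34a1, Umod and Miox exceed 13 on all 6 kidney arrays; Kap and Havcr1 stand far higher in medulla than in cortex, and Cdh16 is also detected in lung.

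Thick ascending limb genes were higher in the kidney and leaned to the medulla. All 14 genes tested were higher and 12 higher than each, with a median difference of 3.97. Between the zones 9 were higher in medulla and 0 in cortex. Zone counts of this list and those below are read against the 11158 members, 2377 higher in cortex and 1915 in medulla. Slc12a1 was at 11.45 ± 0.05 in cortex (SD, n = 3), read 13.38, 13.52 and 13.67 in medulla and 4.34 to 4.77 elsewhere. The zones did not overlap, with medulla higher by 2.07 (adjusted p = 2.23e-11). Cldn10, a claudin of the paracellular cation path, was 5.09-fold over lung, where its brightest probe was at 10.65. Margins of 5.1 and 3.35 came from other probes of Cldn10. Kcnj16, a basolateral potassium channel, was 29.6-fold over spleen.

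Distal convoluted and connecting tubule genes leaned to the cortex, 9 against 4, and 13 of 14 were higher in the kidney. Kl, the co-receptor Klotho for the phosphate hormone FGF23, read 12.21, 12.25 and 12.14 in cortex and 11.11, 10.99 and 10.99 in medulla, at least 56.4-fold over the rest. A second Kl probe, not detected in both zones, differed by 0.47 from the mean of the other tissues, against 7.09, and was not called above each. Pvalb was higher in cortex by 1.51 (adjusted p = 4.46e-09). The thiazide-sensitive cotransporter Slc12a3 had 3 probes that disagreed in size: the brightest on average gave a margin of 1.54 over liver (2.92-fold), and the others margins of 6.94 and 0.88.

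Collecting duct principal cell genes numbered 18 tested, 14 higher, 2 lower and 6 higher than each, and 10 leaned to the medulla against 2 to the cortex. Aqp2, the water channel under vasopressin control, read 8.24, 7.91 and 7.88 in cortex, 9.73, 9.74 and 9.97 in medulla and 4.44 to 5.18 elsewhere. Both zones lay above every other array, and medulla exceeded cortex by 1.80 (adjusted p = 6.24e-08). Fxyd4, a sodium pump regulator of the duct, was higher in medulla by 2.48, while Hsd11b2, which shields the mineralocorticoid receptor from glucocorticoid, was at 10.04 and 10.31 and not called between the zones (adjusted p = 0.221). Intercalated cell genes leaned the other way, with 9 of 14 higher in cortex and 1 in medulla. Slc26a4, the chloride-bicarbonate exchanger pendrin, was at 11.02 ± 0.05 in cortex, 9.46 ± 0.03 in medulla and 6.99 ± 0.01 in lung, 5.52-fold over lung.

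Glomerular genes were the exception among nephron lists. Of 7 podocyte and glomerular genes tested 5 were higher and 1 lower against the mean of the other tissues, but of these only Ptpro, a podocyte phosphatase, was higher than each, and that call was lost under 14 of 26 other settings. Wt1, a podocyte transcription factor that mesothelium also uses, was at 8.57 in cortex, 7.26 in medulla and 8.81 in spleen. Podxl, the surface sialomucin podocalyxin, was at 9.25 in cortex against 10.57 in lung. Between the zones 4 of the 7 were higher in cortex and 0 in medulla.

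Against the labels, cortex held higher levels of more of the glomerular, distal convoluted and intercalated genes and medulla of more of the thick limb and collecting duct genes. The medulla arrays also held proximal tubule genes. The median of the glucose, phosphate, bicarbonate and sulphate carrier list ran from 10.13 to 10.30 on medulla arrays and from 10.37 to 10.49 on cortex arrays. Single genes differed more, with 13 of the 16 on that list called between the zones, 9 higher in cortex and 4 in medulla. The median of the organic ion transporters was 9.29 in cortex and 10.17 in medulla. Their single genes did not lean that way: of 10 called between the zones, 6 were higher in cortex and 4 in medulla.

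Hormone-linked genes and tubule-wide genes were mostly higher in the kidney, and some differed between the zones. Of 11 tested vitamin D, endocrine and circulating factor genes 10 were higher and 6 higher than each, among them the vitamin D receptor Vdr (17.2-fold over lung) and the parathyroid hormone receptor Pth1r (19.7-fold over liver). Cdh16, the kidney-specific cadherin of all tubules, read 13.67, 13.71 and 13.65 in cortex and 13.75, 13.64 and 13.73 in medulla. It read 9.10, 8.77 and 8.79 in lung and was undetected in liver and spleen. The zones overlapped (difference -0.03, adjusted p = 0.852), and the kidney stood 27.7-fold over lung. Basolateral transport gave 13 of 13 genes higher, adhesion and tight junctions 13 of 17, cilium and cystic genes 4 of 5, medullary solute carriers and osmotic response 6 of 10, and androgen or sex dependent genes 5 of 9. In the same order 0, 1, 1, 1 and 3 were lower, where over all genes tested 33.9% were higher and 43.7% lower. Between the zones 6, 6, 3, 7 and 9 of them were called, and 8 of the 11 endocrine genes, where 32.4% of all probes tested were. The 6 of 17 adhesion and tight junction genes lay near that share. All 6 called adhesion and tight junction genes and all 7 called medullary solute carrier genes were higher in medulla.

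Transcription factors that pattern the kidney were mostly higher, many of them from homeobox clusters. Of 42 names 37 were on the array and 27 tested; 23 were higher, 2 lower and 17 higher than each, with 14 of them at 4-fold or more. Hoxd8, a posterior homeobox gene, read 10.96, 11.05 and 11.03 in cortex, 10.72, 10.71 and 10.60 in medulla and 4.30 to 4.59 elsewhere, undetected. Both zones were at least 44.1-fold above the rest, as Hoxd10 was at least 26-fold. Tfap2b, a regulator of distal tubule cells, was at least 16.9-fold higher and the nuclear receptor Esrrb 11.1-fold over liver. Pax8, which specifies nephric cells, was low but present, at 6.68 ± 0.34 and 6.71 ± 0.07, at least 2.76-fold over the rest. Its relative Pax2 was undetected in cortex and at 5.45 ± 0.18 in medulla, so it was no member.

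**Figure D3:**
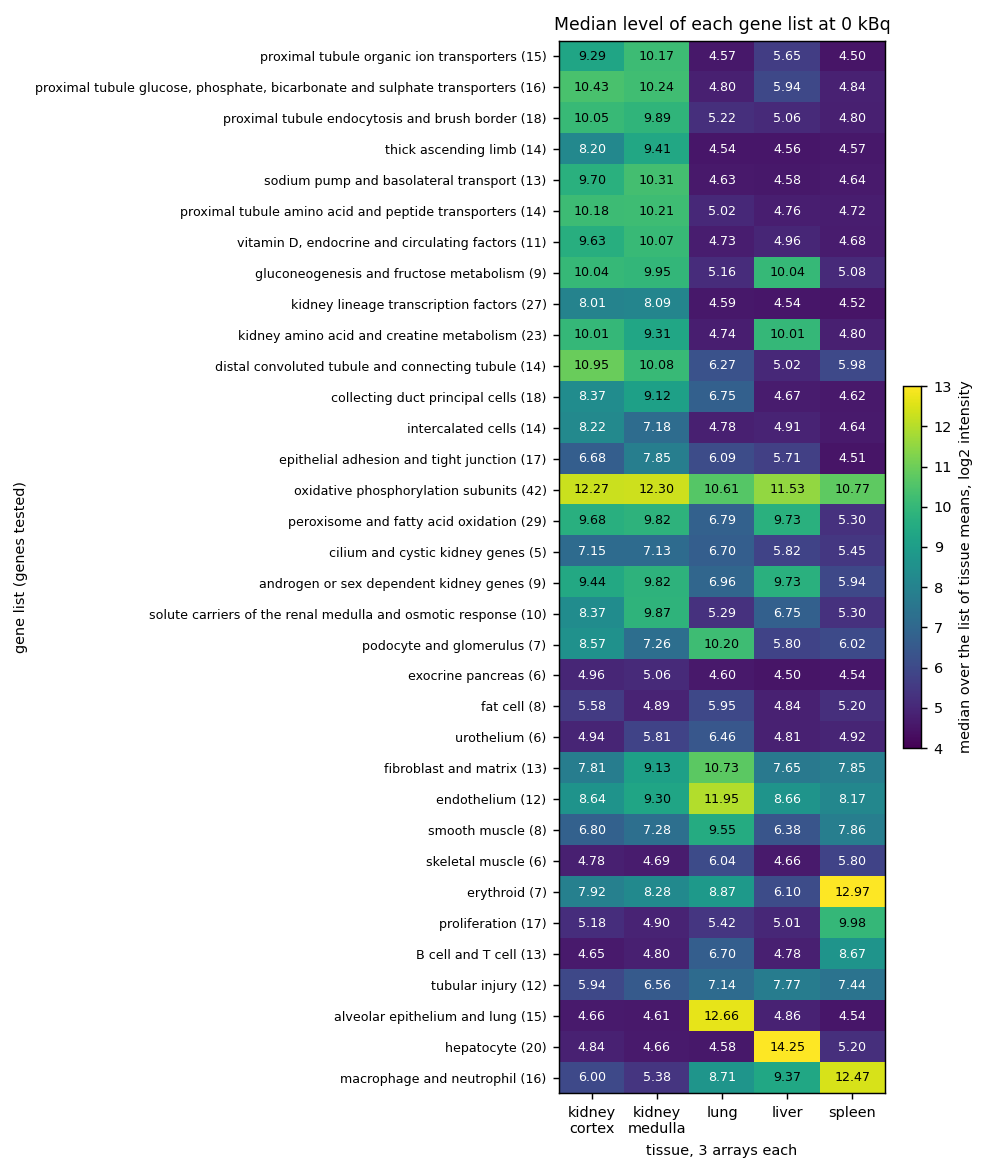
Median over each gene list of the tissue means (log2 intensity, 3 arrays per tissue), for lists with at least 5 genes tested, ordered by their median difference between the kidney and the other tissues; the number of genes tested is in brackets. Tubule lists are bright in both kidney columns and dark elsewhere, gluconeogenesis and amino acid lists are bright in kidney and liver, the macrophage list is darker in kidney than elsewhere, and the lymphocyte and proliferation lists are as dark in liver as in kidney and bright in spleen.

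Much kidney metabolism was shared with liver. Both zones and liver exceeded both lung and spleen at 1666 members of 1212 genes (14.9%, against 11.1% of all tested), a class defined after the other tests had been seen. The same count was 921 for a pairing of kidney with lung and 348 with spleen. Over all 15156 probes tested these pairings numbered 944 and 354. Of the 1666, both zones were above liver in 390 and below it in 516, and neither held in 760.

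In the amino acid and creatine list 21 of 23 tested genes were higher and 2 lower, and 19 belonged to the class shared with liver. Gldc, which splits glycine, read 12.54, 12.50 and 12.51 in cortex, 10.99, 10.74 and 10.88 in medulla and 12.05, 11.97 and 11.91 in liver. It was at 4.46 to 5.01 in lung and spleen, and liver lay between the zones. Glyat, which conjugates acids with glycine, was at 13.08, 12.14 and 12.43 in cortex, medulla and liver, and Bhmt2, a homocysteine methyltransferase, at 10.81, 11.22 and 12.13.

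All 9 tested gluconeogenic and fructose genes were higher, 8 of them in the class shared with liver. G6pc, which releases free glucose, read 13.15, 13.02 and 12.95 in cortex, 11.67, 11.44 and 11.55 in medulla, and 11.54, 11.55 and 11.51 in liver. Medulla and liver overlapped, and cortex exceeded medulla by 1.49 (adjusted p = 6.49e-10). Fbp1, the bisphosphatase of the pathway, was at 12.78, 12.40 and 12.55 in cortex, medulla and liver. Its paralog Fbp2 was undetected in liver and at 10.04, 10.17 and, in lung, 9.69; its call above each tissue was lost under 14 of 26 other settings.

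Peroxisomal and fatty acid oxidation genes followed the same pairing, with 27 of 29 higher and 23 shared with liver. Cyp4a14, a fatty acid hydroxylase, was at 12.83 and 12.68 against 11.67 in liver and was undetected in lung and spleen. Acaa1b, a peroxisomal thiolase, was at 12.65 and 12.35 but at 14.09 in liver.

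Subunits of oxidative phosphorylation were higher in both zones by small steps. Of 42 tested genes 41 were higher and 37 higher than each, with a median difference of 1.25; the lower gene was Cox6a2, a heart and muscle subunit of cytochrome oxidase. Sdhb, a subunit of succinate dehydrogenase, was at 11.40 ± 0.10 and 11.43 ± 0.12, 1.55-fold over liver, and Cyc1, cytochrome c1, 1.69-fold over liver. Atp5g1, of the ATP synthase ring, was at 13.37 and 13.40 against 12.40 in liver. Only 9 of the 42 were called between the zones. Cox7a1, the muscle-type subunit of cytochrome oxidase, read 10.05, 10.22 and 10.11 in cortex, 10.20, 10.33 and 10.12 in medulla and 4.91 to 7.74 elsewhere, and was the 1 subunit at 4-fold or more over each tissue.

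Of the 391 genes lower in both kidney zones than in each other tissue 8 were in a gene list. Lrg1, a secreted leucine-rich glycoprotein, read 5.95, 6.59 and 5.93 in cortex and 5.84, 6.36 and 5.47 in medulla. It read 11.53, 11.52 and 11.49 in lung, 12.75, 12.77 and 12.70 in liver and 10.97, 10.79 and 10.89 in spleen. The kidney lay 26.5-fold below spleen, the lowest of the 3, with a difference from the mean of the others of -5.69 ± 0.11 (SE, adjusted p = 4.25e-21).

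Lcn2, an iron-scavenging lipocalin known as a marker of tubular injury, read 5.14, 5.24 and 5.15 in cortex and 6.80, 7.01 and 6.69 in medulla. Its levels were 10.19 ± 0.11 in liver, 11.62 ± 0.16 in lung and 13.08 ± 0.11 in spleen (SD, n = 3). The higher zone lay 10.2-fold below liver, and medulla was above cortex by 1.66 (adjusted p = 6.67e-11). Trf, the iron carrier transferrin, was at 7.76 and 7.79, 6.99-fold below spleen, and Gch1, which starts biopterin synthesis, at 6.30 and 5.98, 7.58-fold below lung.

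S100a8 and S100a9, the calprotectin subunits of neutrophils, were 7.58-fold and 7.27-fold below liver. Both were higher in cortex than in medulla, S100a9 by 1.29 (adjusted p = 1.80e-08). The rest of the 10 were Gsdmd, a pore-forming protein of pyroptosis (6.81-fold below spleen), Lgals9, a galectin (5.76-fold below lung), Helz2, an interferon-responsive helicase (5.59-fold below lung), and the chemokine Ccl9 (5.10-fold below spleen).

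**Figure D4:**
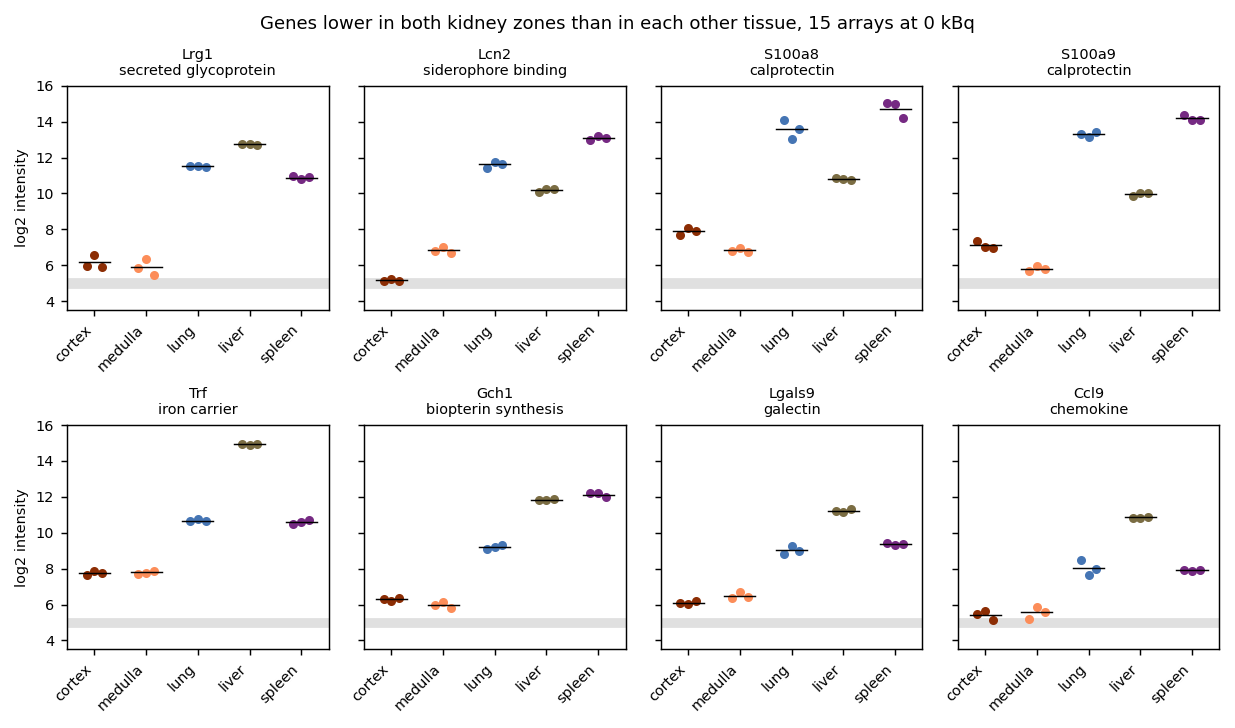
Log2 intensity of 8 genes that were lower in both kidney zones than in each other tissue, on the 15 arrays at 0 kBq; points are arrays, bars are means of 3 arrays and the grey band is the range of detection limits, 4.76 to 5.22. The 6 kidney arrays lie below all 9 other arrays for each gene.

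Of the tubular injury list 12 of 14 genes on the array were tested: 10 were lower in the kidney, 1 higher and 3 lower than each other tissue. Over all genes tested 43.7% were lower, 33.9% higher and 5.14% lower than each. Detected in both zones were 9 of the 12. The higher gene was Havcr1, kidney injury molecule 1, which read 6.48, 6.25 and 6.09 in cortex, 11.40 ± 0.11 in medulla (SD, n = 3) and 6.24, 6.77 and 6.13 in spleen. Cortex overlapped spleen, and medulla stood apart from every other array. On the arrays of 1.8 kBq the zones lay closer, with means of 9.78 in cortex and 10.57 in medulla, and they were at 7.92 and 11.25 at 14 kBq and 8.94 and 10.37 at 42 kBq. Vim, an intermediate filament of mesenchyme, was at 6.49 and 7.39 against 10.84 in lung. Hmox1, which breaks down haem, was at 5.84 and 5.23 against 10.19 in spleen.

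Markers of liver and lung cells were low in the kidney as whole lists, with medians similarly low in the remaining tissues. The hepatocyte median was 4.58 in lung and 5.2 in spleen. That of the lung list was 4.66 in cortex, 4.61 in medulla, 4.86 in liver and 4.54 in spleen. Lower than each other tissue were 2 of the 20 hepatocyte and 0 of the 15 lung genes tested. Over all genes tested 43.7% were lower against the mean and 5.14% lower than each. Of 20 tested hepatocyte genes 18 were lower, 10 were undetected in medulla and 8 in cortex, and the list median ran from 4.64 to 4.95 on kidney arrays against 14.22 to 14.26 on liver arrays. The log2 of their summed intensity ran from 11.9 to 12.2 on kidney arrays and was 18.4 on liver arrays. Exceptions were Ttr, transthyretin, at 10.68 and 10.93 against 14.25 in liver, and Cyp2e1, an ethanol-oxidising cytochrome, at 11.03 and 9.95 against 14.73. The probe for Alb was no guide, at 5.9 in liver itself. Of 15 lung and alveolar genes 11 were lower and 9 undetected in each zone, the surfactant proteins Sftpb and Sftpd among them, but Napsa, an aspartic protease of lung and proximal tubule, reached 14.56 ± 0.04 in medulla against 12.39 ± 0.11 in lung and 11.40 ± 0.10 in cortex.

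All 13 tested lymphocyte genes, all 16 macrophage and neutrophil genes and all 17 proliferation genes were lower in the kidney, where over all genes tested 43.7% were lower. Only 3 of the 13, 8 of the 16 and 6 of the 17 were detected in both zones. A gene detected only outside the kidney could come out only lower, so these counts are no support for a direction. Lower than each other tissue were 9 of the 16 macrophage and neutrophil genes, 1 of the 13 lymphocyte genes and 0 of the 17 proliferation genes, against 5.14% of all genes tested. The median of the proliferation list was 5.18 in cortex and 4.90 in medulla, 5.42 in lung and 5.01 in liver, and 9.98 in spleen. That of the lymphocyte list was 4.65 and 4.80 in the kidney, 4.78 in liver, 6.70 in lung and 8.67 in spleen. Adgre1, the macrophage receptor F4/80, was at 7.28 and 7.88, 2.40-fold below liver. Lyz2, macrophage lysozyme, was at 7.73 in cortex but 10.79 in medulla, above the 10.29 of liver. The log2 summed intensity of the macrophage and neutrophil list was 11.7 to 11.8 in cortex, 13.2 to 13.3 in medulla and 17 to 17.2 in spleen, and the part of such cells in the zone gaps was not tested. Mcm5, a replication helicase subunit, was at 7.11 and 6.83 against 12.03 in spleen.

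Vascular and matrix genes were lower against the mean of the other tissues but not against each, and tilted to medulla. The endothelial list had medians of 8.64 in cortex and 9.30 in medulla, 8.66 in liver, 8.17 in spleen and 11.95 in lung, and the matrix list 7.81 and 9.13, 7.65, 7.85 and 10.73. Lower than each other tissue were 0 of the 12 endothelial, 1 of the 13 matrix and 0 of the 8 smooth muscle genes. Of 12 endothelial genes 9 were lower and 3 higher, and 10 were higher in medulla than in cortex against 0 the other way. Among all 11158 members 1915 were higher in medulla and 2377 in cortex. Pecam1, an adhesion molecule of endothelium, was at 7.53 and 8.52 against 12.19 in lung. Emcn, a sialomucin of venous and glomerular endothelium, was at 10.44 and 11.22 against 10.07 in lung; its call above each tissue was lost without cortex array 2 or 3 or lung array 2. Matrix genes gave 8 lower and 3 higher of 13, with 9 higher in medulla, and Col3a1, a fibrillar collagen, was at 5.78 and 5.90, 1.88-fold below spleen. The other lists are read against 33.9% higher and 43.7% lower over all genes tested. Of 8 smooth muscle genes 1 was higher and 7 lower, of 7 erythroid genes 1 and 5, of 8 fat cell genes 3 and 1, of 6 skeletal muscle genes 1 and 5, and of 6 urothelial genes 2 and 3. Of the 2 genes tested on the list of Y-linked genes and Xist, 0 were higher and 1, Xist, was lower. None of the 13 adrenal genes on the array was detected on all arrays of a tissue, and the exocrine pancreas list (16 genes on the array, 6 tested, 3 higher and 2 lower) had a median of 4.45 to 4.56 over those 16 on the arrays of all 5 tissues, near the detection limit. The log2 summed intensity of the 6 tested ran from 11.8 to 11.9 in cortex, 10.7 to 11 in medulla, 10.4 to 10.6 in liver, 9.20 to 9.41 in spleen and 7.26 to 7.38 in lung. Higher than each other tissue were 2 of them, and Cela1, an elastase, was at 11.76 and 10.64 against 10.24 in liver.

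Some members differed strongly between the zones, and the genes named here were picked for that difference. Spink6, a protease inhibitor, read 5.49, 5.14 and 5.19 in cortex and 11.13, 11.13 and 11.13 in medulla. Slc22a19, an organic anion transporter, read 6.57, 6.10 and 6.19 in cortex and 11.53, 11.59 and 11.69 in medulla. Both were undetected in the other tissues, and no cortex array approached a medulla array. Serpina1f, a serpin, and Mep1b, the beta subunit of meprin, had gaps of -5.41 and -5.16, cortex minus medulla. On the arrays of 42 kBq the zone means lay closer, at 9.48 and 10.66 for Spink6 and 9.10 and 10.51 for Mep1b.

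Kap, an androgen-regulated protein of the proximal tubule, read 10.14, 9.42 and 9.65 in cortex and 14.23, 14.28 and 14.26 in medulla, a difference of -4.52 (adjusted p = 7.12e-16). It was at 4.33 to 4.46 in the other tissues, so even its cortex level was at least 23-fold higher. In the opposite direction the gaps were smaller. Cyp2d12, a cytochrome P450, was higher in cortex by 2.46, the glucose-6-phosphate carrier Slc37a4 by 2.19, Sectm1b, a transmembrane immune ligand, by 2.18, Serpina3b, a serpin, by 2.18 and Baat, the bile acid conjugating enzyme, by 2.08. Baat was far below liver, at 8.17 and 6.09 against 10.99.

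The comparison was repeated on arrays it had not used, those of the same 5 tissues at 1.8, 14 and 42 kBq. Activity and samples cannot be told apart in a departure from the values at 0 kBq. Of the 278 probes at least 4-fold above each tissue at 0 kBq, 232, 261 and 246 were so again at 1.8, 14 and 42 kBq (83.5%, 93.9% and 88.5%), where 1.66%, 1.96% and 1.94% of all probes tested were. Higher than each tissue with no size asked were 276, 278 and 278. Of the 466 lower probes 286, 359 and 353 were lower than each again, where 3.97%, 4.71% and 5.03% of all probes tested were.

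**Figure D5:**
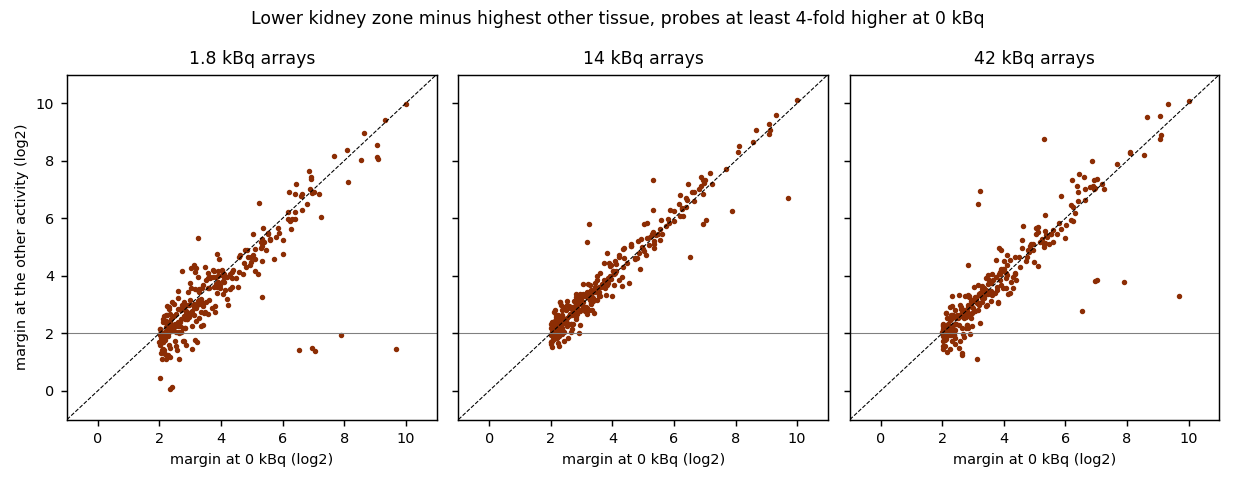
Margin (lower kidney zone minus highest of lung, liver and spleen, log2) of the 278 probes at 0 kBq on the horizontal axis against the margin on the arrays of 1.8, 14 and 42 kBq on the vertical axis. The dashed line marks equal margins and the grey line 2, or 4-fold. Most probes follow the line; Spink1 and kallikrein probes fall far below it, and Kap lies above it at 14 and 42 kBq.

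The largest departures came from the spleen side. Spink1 had a margin of 9.69 at 0 kBq and of 1.46, 6.71 and 3.29 at 1.8, 14 and 42 kBq. Its spleen level went from 4.35 to 12.63, 7.67 and 10.93, while its kidney levels stayed between 14.09 and 14.69. Klk1, Klk1b5 and Klk1b27 had margins of 1.41, 1.39 and 1.94 at 1.8 kBq, with spleen levels of 12.54, 11.77 and 10.83.

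The median of the 16 exocrine pancreas genes on the array was 13.85 to 13.94 on the spleen arrays of 1.8 kBq, 9.87 to 10.09 at 14 kBq and 12.99 to 13.08 at 42 kBq, against 4.50 to 4.56 at 0 kBq. It was 4.70 or less on all kidney arrays. Against lung and liver alone the margin of Spink1 was 9.68 at 0 kBq and 9.42, 9.72 and 9.65 at the others, and that of Klk1 was 8.24, 8.67, 7.81 and 8.45. With spleen left out, a choice made after these values were seen, 241, 262 and 249 of the 278 were again at least 4-fold higher.

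In all, 9 of the 278 margins were smaller by over 2 at some activity. Beside Spink1, the 3 kallikreins and 1 unnamed probe these were Kap, Pgam2, Tmed6 and Dnajc12. Larger by over 2 at some activity were 3, Kap, Slc22a13 and Mettl7a2, all lower in cortex than in medulla at every activity. These genes were named after their values were seen. The cortex level of Kap was 9.73 at 0 kBq and 7.69, 11.79 and 13.24 at 1.8, 14 and 42 kBq, and its medulla level 14.26, 12.77, 13.83 and 13.92. Slc22a13, an organic ion carrier, was in cortex at 7.72 and then 8.79, 9.96 and 11.26, and Mettl7a2 at 7.80 and then 9.93, 10.35 and 11.46.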

How the data were processed

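The deposited table gives, per the file headers, a raw linear intensity for each probe and array, without background correction or normalisation, and a detection p-value. The authors also deposited processed intensity values, whose normalisation is not given in the sources used here; they served as an alternative. Of 25697 probes 23978 had 1 gene symbol, 0 several and 1719 none; 23962 Entrez identifiers matched the RefSeq table, which updated old symbols.

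Detection p-values fed limma's normal-exponential background correction (limma 3.58.1 in R 4.3.3) with offset 16; the log2 intensities were quantile normalised over the 15 arrays at 0 kBq, and each other activity on its own. limma fitted 1 mean per group with an intensity trend (10 residual degrees of freedom). All tests were two-sided, the Benjamini-Hochberg adjustment ran over the 15156 tested probes, and the threshold was 0.05. Every adjusted p comes from limma, and the procedure was tested on simulated data.

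Where a gene had several probes, the one brightest on average was used. The members, the 36 gene lists (667 names, 584 on the array) and the rules were chosen with earlier results of these data known. Named by rule were the 20 largest margins, the 10 largest in reverse, up to 4 called genes per list by size, the 5 largest zone differences each way and 20 genes whatever their values, some of which are not reported here; others are named as exceptions to a count or after their values were seen. Promoter sequences are from RefSeq, build GRCm38.p6. Alternatives changed the background correction, offset, normalisation, detection filter, variance model and arrays. Deviations of same-numbered arrays of different tissues correlated at -0.12 to 0.22, with 2 of 30 pairs over 0.1, so the numbers were not taken to pair samples. No 2 arrays were identical.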

Additional observations from a re-analysis of the deposited data

Results flagged for a closer look

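The kidney zones differed in their distance from the same 3 tissues for the genes with the largest zone gaps, by limma's test of cortex minus medulla. Higher in medulla were Spink6 (-5.86 log2, adjusted p = 5.00e-17), Serpina1f (-5.41), Slc22a19 (-5.32), Mep1b (-5.16) and Havcr1 (-5.13, adjusted p = 1.42e-13). Higher in cortex were Cyp2d12 (2.46, adjusted p = 2.93e-11), Slc37a4 (2.19), Sectm1b (2.18), Serpina3b (2.18) and Baat (2.08). In each case all 3 arrays of one zone lay above all 3 of the other. The genes were chosen by this same difference on these arrays, so the p-values and the separation are no separate support. On the arrays of 1.8 kBq Havcr1 was at 9.78 in cortex and 10.57 in medulla. Groups of 3 arrays were too small for a test of single outlying arrays.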

How the results depend on the processing

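The number of members at least 4-fold above each tissue was 278; it was 160 without background correction and 158 on the authors' processed values, and 207 to 293 in all other settings without a left-out array. The number lower than each tissue was 466, 243 under median scaling and 557 under cyclic loess. With 1 array left out, members higher than the mean of the others numbered 4603 to 4708, lower 3830 to 3924, higher than each 1362 to 1432, lower than each 436 to 478, and at least 4-fold higher 271 to 278. With the replicate number as a block these were 4721, 3969, 1424, 474 and 278. All but 3 of 148 named genes kept their direction and call against the mean of the other tissues in all 26 settings. Baat went from 0.50 to -0.21 on the processed values, -0.20 without background correction and -0.03 with an offset of 50. Pdpn went from 0.22 to -0.21 and -0.18 in the first 2 of these and had 0.01 in the last, and Xist from -0.27 to -0.13 (adjusted p = 0.247) under median scaling; the cause was not tested. Calls above each tissue were lost for Spink6, Mep1b, Cela1 and Khk under cyclic loess for Khk and Ift88 under median scaling and without medulla array 3, for Khk without liver array 1 and for Ift88 without lung array 3. Hmox1 lost its call below each tissue under median scaling. Levels near the detection limit, as of Lrp2, Pax8 and undetected genes, limit what a fold can show.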
